A study of Homo sapiens with 6 samples.

Results

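The ARP2/3 complex is an assembly of actin-related and ARPC subunits that starts a new actin filament on the side of an existing one. The branched networks it builds push the membrane forward at the edge of a moving cell and act in endocytosis. ACTR3 encodes ARP3, which pairs with ARP2, the product of ACTR2, to form the template of the new filament, while the ARPC subunits hold the pair on the mother filament.

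The RNA of the complex was followed on 6 Affymetrix U133 Plus 2.0 arrays. KHOS and U-2OS, the cells used, are both lines from human osteosarcoma, a bone cancer. In each line 1 array was hybridized with RNA of untransfected cells, 1 with RNA of cells given nonspecific siRNA at 40 nM and 1 with RNA of cells given CDK11 siRNA at 40 nM, the last collected 48 h after transfection. CDK11 is a cyclin-dependent kinase with roles in transcription and splicing. Each array carried the combined RNA of 3 flasks and each condition has 1 array within a line, without a replicate, and a single siRNA sequence was used against CDK11, so that effects of that sequence and of losing CDK11 cannot be told apart.

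All probe sets with the symbol of a complex member were taken. A probe set is a group of array probes that reads 1 stretch of RNA, and its values here are log2 signals. There were 20 such probe sets of the 54675 in the table, 5 of ACTR3 and 15 of the other subunits. ACTR3 had been chosen by its lower signal with CDK11 siRNA than with nonspecific siRNA in both lines, and the other subunits for belonging to the same complex. The values of that comparison are therefore a description and carry no test. Of the 9 genes, 8 had a probe set with their symbol alone. ACTR2 was not analysed here. Only probe sets that reached a log2 signal above 6.64, or 100 on the linear scale, on at least 1 array were kept, which left 18 member probe sets, 4 of ACTR3 and 14 of the others. The 2 below this limit were 239170_at of ACTR3, at 2.38 to 2.51 on the 6 arrays, and 1569325_at of ARPC5, at 2.49 to 2.52.

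CDK11A and CDK11B, which encode the target, had 5 probe sets. All 5 fell below the nonspecific siRNA array of the same line in both lines, and the 2 above the limit were left at between 14.8% and 20.6% of the nonspecific siRNA signal. Of the mesenchymal markers 5 of 6 were above the signal limit on at least 1 array, COL1A2 being the exception. Of the osteoblast markers with a probe set, RUNX2 was above the limit, and SP7, ALPL and IBSP were not on any array. The epithelial marker EPCAM was above the limit in KHOS, unlike CDH1 and KRT19, and none of the 4 blood markers with a probe set was.

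Since ACTR3 was the subunit whose RNA was lower, its promoter sequence is shown beside that of ARPC2, a core subunit with 3 probe sets. The windows are from RefSeq, build GRCh38.p14, and run from 250 bases before to 50 after a transcript start. Windows were found for 8 of the 9 genes, ARPC1B being the exception, and ACTR3 has 3 annotated starts. The capitals mark matches on either strand to the letters of 6 promoter motifs, spelled out after the sequences. The motifs were chosen after the ACTR3 windows had been read.
ACTR3, chr2:113889684-113889983, plus strand: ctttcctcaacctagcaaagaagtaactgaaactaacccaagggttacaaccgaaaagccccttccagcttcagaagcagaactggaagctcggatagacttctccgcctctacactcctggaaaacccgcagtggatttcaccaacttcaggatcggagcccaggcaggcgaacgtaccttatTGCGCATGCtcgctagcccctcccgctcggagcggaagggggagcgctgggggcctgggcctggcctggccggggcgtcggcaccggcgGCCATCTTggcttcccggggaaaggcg
ACTR3, chr2:113890348-113890647, plus strand: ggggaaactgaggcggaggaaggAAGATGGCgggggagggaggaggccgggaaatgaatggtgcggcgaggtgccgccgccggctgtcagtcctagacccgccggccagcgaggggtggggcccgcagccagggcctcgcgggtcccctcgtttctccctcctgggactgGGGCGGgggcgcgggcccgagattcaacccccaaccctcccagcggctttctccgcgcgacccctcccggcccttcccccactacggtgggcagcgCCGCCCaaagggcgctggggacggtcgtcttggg
ARPC2, chr2:218216939-218217238, plus strand: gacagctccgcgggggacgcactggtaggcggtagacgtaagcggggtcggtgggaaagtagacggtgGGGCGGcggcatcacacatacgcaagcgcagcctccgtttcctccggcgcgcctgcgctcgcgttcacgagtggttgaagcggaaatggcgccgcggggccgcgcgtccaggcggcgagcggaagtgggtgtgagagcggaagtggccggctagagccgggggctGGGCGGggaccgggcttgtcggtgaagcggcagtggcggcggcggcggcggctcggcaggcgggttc

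The letters GCCATCTT, a site of YY1, were present in all 3 ACTR3 windows and in none of the 8 windows of the other subunits. The windows of the 2 nearest ACTR3 starts overlap and share the same copy. The letters were present in 2.89% of 35116 promoter windows of this length. The letters TGCGCATGC, a site of NRF1, were in the 2 overlapping ACTR3 windows, as the same copy, and in that of ARPC1A, against 1.56% of all windows. As the motifs were chosen after the ACTR3 windows had been read, these counts are a description. The SP1 box, GGGCGG, was in 10 of the 11 member windows and in 45.0% of all windows. The share of G and C was 60.3% to 73.3% in the member windows, with a median of 58.7% over all windows. The ARPC2 windows overlap and share a copy of this box. An ETS site, spelled CCGGAAG, was in 3 member windows and in 10.3% of all. A CCAAT box was in 4 and in 34.6%. No member window held the TATA box, TATAAA, which was in 11.5% of all. A match is a stretch of letters, and binding there was not measured.

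ACTR3 RNA was lower on the CDK11 siRNA array than on either control array of the same line, by each of its 4 kept probe sets and in both KHOS and U-2OS. The sizes differed widely between the probe sets, from 80.9% of the nonspecific siRNA signal left in KHOS by 213101_s_at to 29.6% left by 228603_at. Against nonspecific siRNA no kept probe set of another subunit was lower in both lines, and the share of all kept probe sets lower in both was not counted. Against untransfected cells ARPC3 and, by 226915_s_at, ARPC5L were lower in both lines. The difference of the CDK11 siRNA and nonspecific siRNA arrays was set beside its SD over the 16397 kept probe sets, which was 0.449 in KHOS cells and 0.365 in U-2OS.

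Probe set 228603_at, with the lowest mean difference of the ACTR3 probe sets, had log2 levels of 6.74, 6.51 and 4.75 in KHOS cells, for untransfected, nonspecific siRNA and CDK11 siRNA arrays. The corresponding U-2OS levels were 4.12, 4.39 and 2.96. The CDK11 siRNA array was the lowest of its line in each case, and only the untransfected KHOS array lay above the signal limit, so that the probe set was kept through that array alone. Against nonspecific siRNA the log2 difference was -1.76 in KHOS, a z-score of -3.91, and -1.43 in U-2OS, a z-score of -3.98. It left 29.6% and 37.1% of the signal, and as the U-2OS level with CDK11 siRNA is near the array median of 2.92 to 2.98 those shares are not exact. Of the kept probe sets, 40 lay lower in KHOS cells and 45 in U-2OS.

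Probe set 213102_at was bright on all arrays. Its levels were 13.07, 12.64 and 11.87 in KHOS, for untransfected, nonspecific siRNA and CDK11 siRNA, and 12.60, 12.60 and 11.51 in U-2OS. The CDK11 siRNA array was again the lowest of each line, and in KHOS the nonspecific siRNA array lay between it and the untransfected array. Its difference against nonspecific siRNA was -0.77 in KHOS, with a z-score of -1.72, and -1.09 in U-2OS, with a z-score of -3.05. It was thus just past the bound of -1.07 in U-2OS and was the nearest ACTR3 probe set on the other side of the bound of -1.35 in KHOS. Of the 1418 kept probe sets with a mean level above 12, 11 were lower than it in KHOS cells and 0 in U-2OS.

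The remaining bright probe sets showed smaller differences. Levels of 200996_at were 12.88, 12.76 and 12.34 in KHOS cells and 13.20, 13.27 and 12.90 in U-2OS, in the same sequence of conditions. Those of 213101_s_at were 13.20, 13.17 and 12.86 in KHOS cells and 13.58, 13.57 and 13.34 in U-2OS. In both the control arrays of a line lay close together and the CDK11 siRNA array below them. The differences against nonspecific siRNA were -0.42 and -0.38 for 200996_at and -0.31 and -0.23 for 213101_s_at, in KHOS and U-2OS. The z-scores of these 4 values lay between -1.09 and -0.68. Of all kept probe sets 2157 in KHOS cells and 1511 in U-2OS were lower than 200996_at, and 3145 and 2785 lower than 213101_s_at. Among the probe sets with a mean level above 12, 49 in KHOS cells and 43 in U-2OS were lower than 200996_at, and 100 and 82 lower than 213101_s_at. The annotation draws 213101_s_at and 213102_at from the same source sequence, yet the difference of 213102_at was the larger in both lines. The transcript stretch that each of the probe sets reads was not analysed here.

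**Figure D1:**
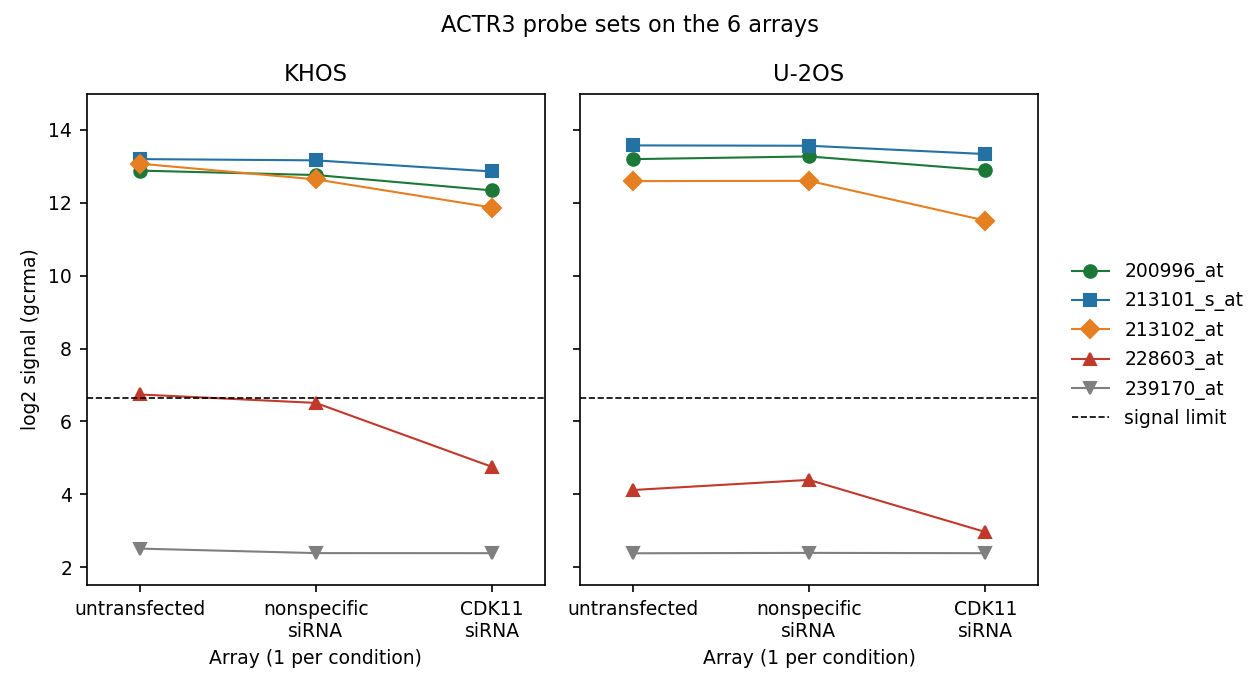
Log2 signal (y axis) of the 5 ACTR3 probe sets on the 3 arrays of each line (x axis), with 1 point per array and no replicates, and the signal limit of 6.64 dashed. The CDK11 siRNA point is the lowest of its line for the 4 kept probe sets, and 228603_at, at 6.74 in untransfected KHOS cells, is above the limit on that array alone.

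Of the 18 kept member probe sets, 1 lay beyond 3 SD in KHOS, 228603_at, where 1.38% of all kept probe sets did. In U-2OS there were 2, 228603_at and 213102_at, beside 1.87% of all. Below -3 SD in both lines was 228603_at alone of the members, as were 0.201% of all kept probe sets. These counts restate how ACTR3 was chosen. They rest on the limit too, since with the limit placed on the mean of the 6 arrays 228603_at was left out and the counts were 0 in KHOS cells and 1 in U-2OS.

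ARPC1A and ARPC1B encode alternative forms of the propeller subunit, through which activators reach the complex. ARPC1A, read by 200950_at, had levels of 11.99, 11.87 and 12.03 in KHOS cells and 11.82, 12.05 and 12.04 in U-2OS. The CDK11 siRNA array was the highest of the KHOS arrays and lay between the controls in U-2OS. ARPC1B, read by 201954_at, had 11.29, 11.06 and 10.84 in KHOS cells and 11.24, 11.01 and 11.27 in U-2OS. With CDK11 siRNA it was the lowest array in KHOS, with a difference of -0.22 from nonspecific siRNA, and the highest in U-2OS, with 0.26. Both lay well inside the bounds, with z-scores of -0.49 and 0.64.

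ARPC2 and ARPC4 form the core on which the other subunits are assembled, and ARPC3 binds beside ARP3. The 3 probe sets of ARPC2 had differences of 0.18, 0.30 and 0.32 in KHOS cells and of 0.11, -0.01 and 0.11 in U-2OS. The 2 of ARPC4 had 0.38 and 0.11 in KHOS cells and 0.21 and 0.01 in U-2OS. Of these 10 differences 1 was below 0, that of 208679_s_at in U-2OS. A further probe set assigned to ARPC4 and to its readthrough transcript with TTLL3 had 0.51 and -0.05, and 3 more with several symbols never reached the signal limit. ARPC3, read by 208736_at, had levels of 11.26, 10.89 and 10.93 in KHOS cells and of 10.39, 10.39 and 9.97 in U-2OS. In U-2OS its CDK11 siRNA array lay below both controls, and the difference of -0.41, a z-score of -1.19, was the lowest of the subunits other than ACTR3 in either line. In KHOS its difference was 0.03.

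ARPC5 and ARPC5L encode alternative forms of a peripheral subunit. The 2 kept probe sets of ARPC5 had differences of 0.38 and 0.12 in KHOS cells and of 0.14 and 0.22 in U-2OS. The 4 of ARPC5L lay between 0.0075 and 0.13 in KHOS cells and between -0.15 and 0.09 in U-2OS. No probe set of either gene lay beyond 1 SD in either line.

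Over the 14 kept probe sets of the 7 other subunits, 0 lay beyond 3 SD in either line. Their median difference was 0.12 in KHOS cells and 0.05 in U-2OS, where that of all kept probe sets was 0.0096 and 0.014. They ranged from -0.22 to 0.38 in KHOS cells and from -0.41 to 0.26 in U-2OS. The KHOS range held 70.0% of all kept probe sets and the U-2OS range 82.0%. In both lines 7 were higher, 7 had opposite signs and 0 were lower, while the 4 of ACTR3 were lower in both. Of all kept probe sets 48.1% were lower in KHOS and 47.3% in U-2OS, and the share lower in both was not counted. The median of ACTR3's 4 was -0.60 in KHOS cells and -0.73 in U-2OS. These include 228603_at, which was kept through 1 array alone. The others ran from -0.77 to -0.31 in KHOS cells and from -1.09 to -0.23 in U-2OS. With 1 array per condition these differences cannot be set against a replicate spread.

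**Figure D2:**
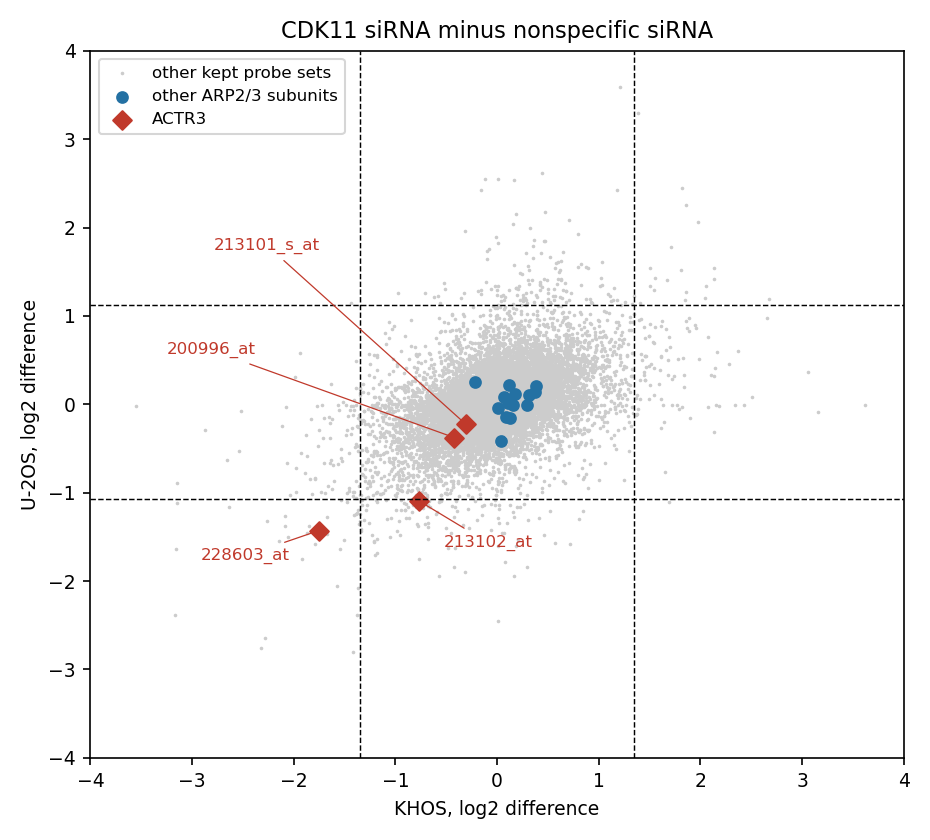
CDK11 siRNA array minus nonspecific siRNA array on the log2 scale, KHOS on the x axis and U-2OS on the y axis, with 1 point per kept probe set and the 3 SD bounds dashed. The ACTR3 points (red) run from -0.31 and -0.23 for 213101_s_at to -1.76 and -1.43 for 228603_at, and the 14 of the other subunits (blue) stay between -0.41 and 0.38 on both axes.

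The untransfected array served as a second control. It shares the CDK11 siRNA arrays with the comparison above, so that the values are given side by side. Against untransfected cells 228603_at had -1.99 in KHOS cells and -1.15 in U-2OS, 213102_at -1.20 and -1.08, 200996_at -0.54 and -0.30, and 213101_s_at -0.34 and -0.24. All 8 were below 0, as against nonspecific siRNA. Beyond 3 SD were 1 member probe set in KHOS, 228603_at, beside 1.59% of all kept probe sets, and 0 in U-2OS, beside 1.62%. As 228603_at was kept through the untransfected KHOS array alone, the control here, its count follows in part from the filter. With the limit on the mean of the 6 arrays the KHOS count was 0. The bounds are wider here, at -1.61 in KHOS cells and -1.30 in U-2OS.

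For the other subunits the sign in KHOS depended on the control. Against nonspecific siRNA 13 of their 14 probe sets were higher in KHOS with CDK11 siRNA, and against untransfected cells 7 were higher and 7 lower, with a median of 0.0044. The nonspecific siRNA array lay below the untransfected one in KHOS for 12 of the 14, with a median of -0.13, where the median of all kept probe sets was -0.0034. In U-2OS 9 of the 14 were lower with nonspecific siRNA than untransfected, and the median was -0.06. The lowest values against untransfected cells were those of ARPC1B, -0.45, in KHOS and of ARPC3, -0.42, in U-2OS, and ARPC3 had -0.34 in KHOS. ARPC3 was thus below untransfected cells in both lines, as was ARPC5L by 226915_s_at, with -0.04 in KHOS and -0.15 in U-2OS.

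Nonspecific siRNA itself moved no member probe set beyond 3 SD from untransfected cells, in KHOS or in U-2OS, beside 1.51% and 1.59% of all kept probe sets. For ACTR3 the differences between the 2 controls were -0.43 for 213102_at and between -0.23 and -0.03 for the others in KHOS. The U-2OS values lay between -0.01 and 0.28. In U-2OS the controls of 213102_at differed by 0.01, and its difference to CDK11 siRNA was about the same with either. In KHOS the untransfected array gave the larger difference for each of the 4.

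**Figure D3:**
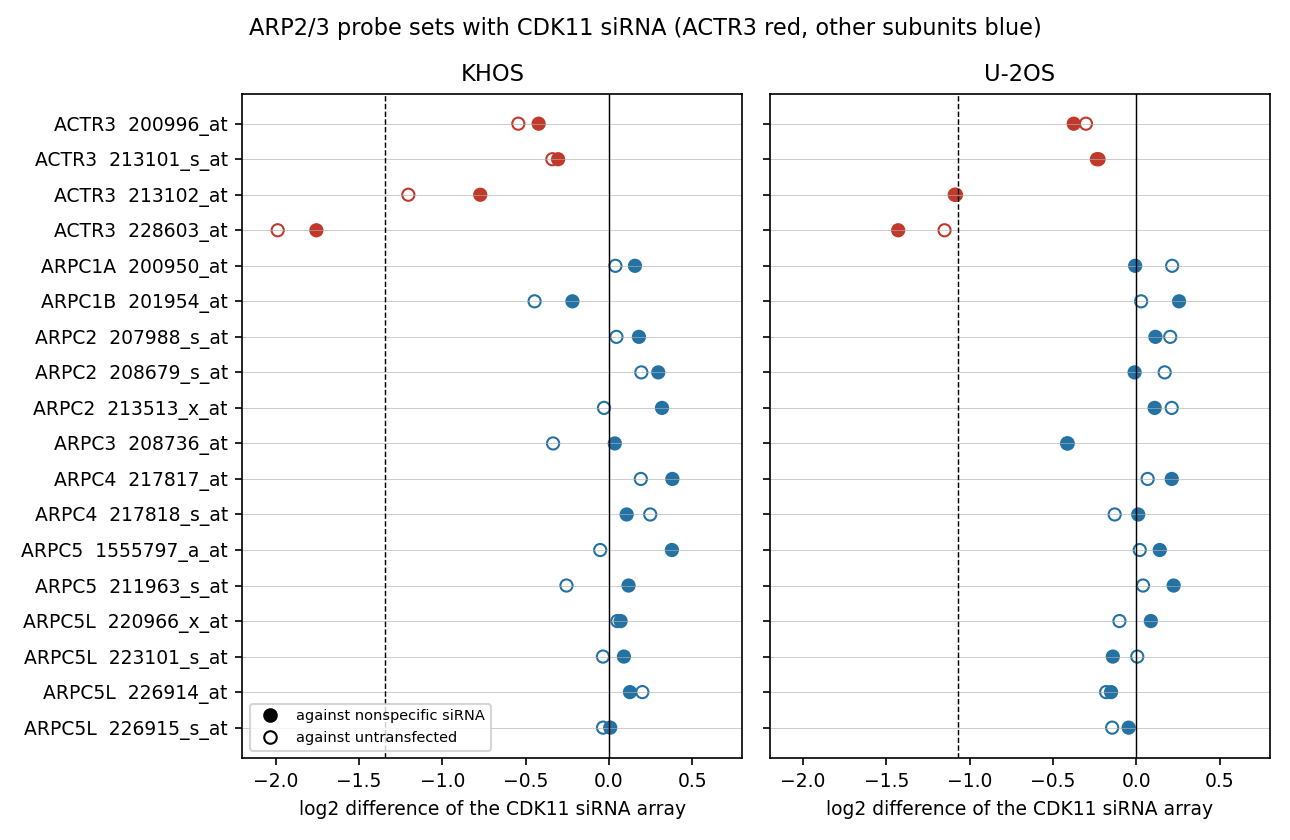
Log2 difference of the CDK11 siRNA array (x axis) for the 18 kept probe sets of the complex (y axis) in each line, against nonspecific siRNA (filled) and against untransfected cells (open), with the lower 3 SD bound against nonspecific siRNA dashed. All ACTR3 points (red) lie below 0, and those of the other subunits (blue) lie between -0.45 and 0.38.

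The lines themselves were compared by limma with the transfection as a block, a comparison that was not used to choose the genes. Each line is 1 cell line with 3 differently treated arrays, and the p-values measure the spread between those arrays only. At an adjusted p of 0.05, limma called 72.1% of all kept probe sets different between KHOS and U-2OS. The arrays of the 2 lines did not overlap for 74.0% of all kept probe sets. The ACTR3 probe set 228603_at, kept through a KHOS array alone, was in the fit but is left out of the counts here. Of the other 17 member probe sets 10 were called, 5 higher and 5 lower in KHOS, which is no larger share than that of all probe sets. ARPC3 and ARPC4 were called higher in KHOS by all of their kept probe sets. For ARPC3 the KHOS arrays lay at 10.89 to 11.26 and the U-2OS arrays at 9.97 to 10.39, with a limma difference of 0.78 ± 0.13 (SE) and an adjusted p of 0.00458. ARPC4 was higher in KHOS by 0.95 ± 0.10 with an adjusted p of 0.000967 in limma by 217817_at, and by 0.73 ± 0.12 with 0.00433 by 217818_s_at. ARPC2 was called higher by 1 of its 3 probe sets, 213513_x_at, by 0.44 ± 0.13 with an adjusted p of 0.0287 in limma, a call that was lost without the untransfected arrays (0.32) or the CDK11 siRNA arrays (0.44). ARPC1A, ARPC1B and ARPC5 were not called, with 95% intervals of the difference from -0.30 to 0.29 for ARPC1A and from -0.47 to 0.25 for ARPC1B. Of the ARPC5 probe sets 211963_s_at had an interval from -0.28 to 0.28. The other, 1555797_a_at, had -0.32 with an interval from -0.61 to -0.03 and an adjusted p of 0.0525 in limma, which was 0.0172 with the arrays centred and between 0.0289 and 0.249 in the other settings.

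The probe sets of ARPC5L disagreed on which line was higher. Its 226914_at was higher in KHOS, at 10.02 to 10.22 against 8.90 to 9.08 in U-2OS, by 1.11 ± 0.12 with an adjusted p of 0.00108 in limma. Its 3 other probe sets were lower in KHOS, with log2 differences of -0.68, -0.78 and -0.55 and adjusted p of 0.00303, 0.00247 and 0.00528 in limma. The annotation gives the same source sequence for 226914_at and for 226915_s_at, which was among those lower in KHOS. For ACTR3, 200996_at and 213101_s_at were lower in KHOS, with limma differences of -0.46 ± 0.10 and -0.42 ± 0.10 and an adjusted p of 0.0135 each. Both calls were lost without the nonspecific siRNA arrays, at -0.43 each, and without the CDK11 siRNA arrays, at -0.41 and -0.39. The arrays of 213102_at overlapped, and its difference of 0.29 had an adjusted p of 0.092 in limma. For 228603_at 5 of the 6 arrays were below the signal limit, so that no difference between the lines is given. Whether the probe sets of a gene differ from each other was not tested.

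**Figure D4:**
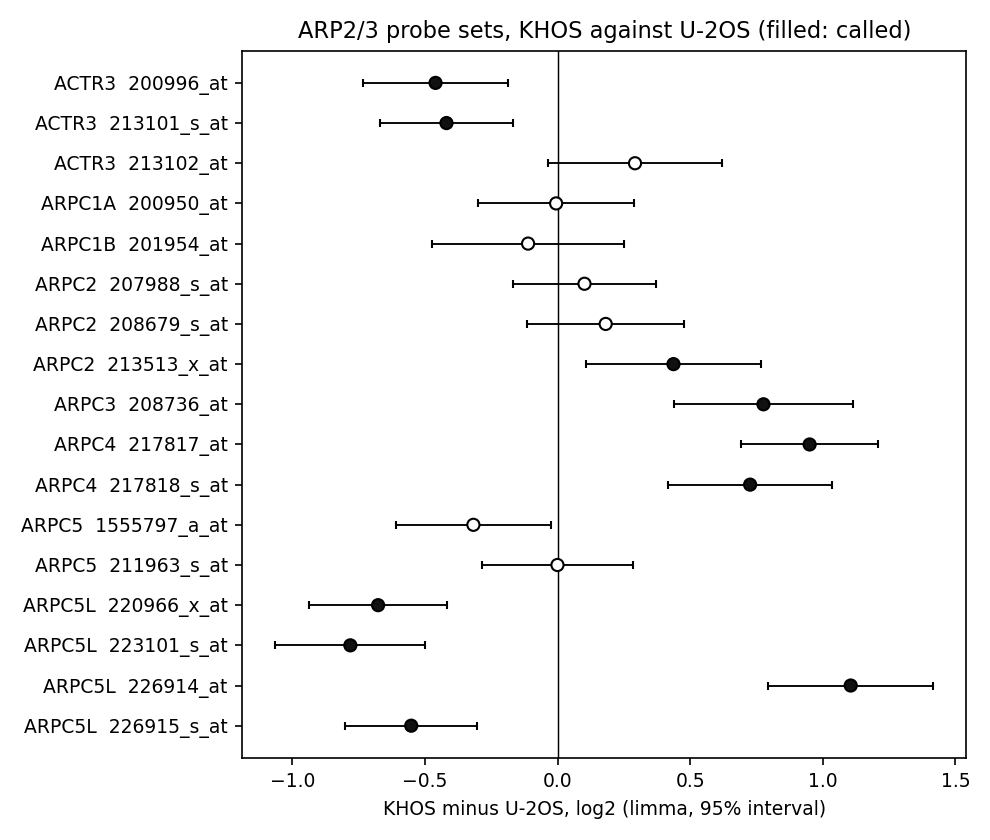
Difference of the 3 KHOS and the 3 U-2OS arrays on the log2 scale (x axis) for the 17 probe sets compared (y axis), with the 95% interval from limma as bars. Filled points were called at an adjusted p of 0.05, and ARPC5L has called points on both sides of 0, from -0.78 to 1.11.

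ACTR3B and ACTR3C are paralogs of ACTR3. The ACTR3B probe set above the limit, 218868_at, was above it in KHOS only. It had levels of 7.29, 6.80 and 6.76 in KHOS cells and of 5.09, 4.72 and 4.98 in U-2OS. Its differences between CDK11 siRNA and nonspecific siRNA were -0.04 and 0.26. A second ACTR3B probe set and that of ACTR3C never reached the limit. Probe sequences were not used here, and whether RNA of ACTR3B binds to ACTR3 probes was not tested.

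The genes that switch the complex on and off, and other actin genes, were taken from 5 lists. Of their 93 kept probe sets of 55 genes, 1 lay beyond 3 SD in KHOS cells and 2 in U-2OS for CDK11 siRNA against nonspecific siRNA, or 1.08% and 2.15%, close to the shares of all kept probe sets given above. The list medians against nonspecific siRNA lay between 0.04 and 0.32 in KHOS cells and between -0.0052 and 0.24 in U-2OS.

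Of the 26 listed activators of the complex 22 had a probe set with their symbol alone, and 20 of these were above the limit. Of their 35 probe sets 0 were beyond 3 SD in KHOS cells and 1 was lower in U-2OS. This was WASL, which encodes N-WASP, an activator that binds the complex directly. Its probe set 205809_s_at had levels of 8.69, 8.74 and 8.41 in KHOS cells and 7.64, 7.94 and 6.57 in U-2OS. The CDK11 siRNA array was the lowest of each line, with differences from nonspecific siRNA of -0.33 and -1.37. The other WASL probe set had -0.27 and -0.66. Against untransfected cells they had -0.28 and 0.03 in KHOS cells and -1.08 and -0.71 in U-2OS.

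Inhibitors and genes of branch removal had 6 of 10 genes above the limit, and 1 of their 8 probe sets was higher beyond 3 SD in U-2OS. GMFG, whose product takes filament branches apart, had levels of 4.05, 4.05 and 5.81 in U-2OS, all below the signal limit, and of 8.85, 8.23 and 8.15 in KHOS. The difference from nonspecific siRNA was thus 1.76 in U-2OS, where the level was low, and -0.08 in KHOS.

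Of the 20 listed actins and genes of filament turnover 17 had a probe set with their symbol alone, and 15 of these were above the limit. In KHOS 1 of their 29 probe sets was lower beyond 3 SD. PFN2 encodes a profilin, which brings actin monomers to growing filaments. Its levels were 12.64, 12.69 and 10.90 in KHOS cells and 12.44, 12.42 and 11.58 in U-2OS, so that the CDK11 siRNA array was the lowest of each line, with differences from nonspecific siRNA of -1.79 and -0.84. Against untransfected cells PFN2 had -1.73 and -0.86.

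None of the 15 probe sets of formins and other nucleators and of the 6 of other actin-related proteins lay beyond 3 SD. Among the formins, FHOD1 had -0.92 and -0.16, and FMNL2, below the limit in U-2OS, had 0.23 and 1.06 in KHOS. ACTL6A, a subunit of chromatin remodelling complexes, had 0.51 and 0.43, and ACTR5 -0.27 and -0.16.

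Probe sets with a pattern like ACTR3 were sought by centring the 3 arrays of each line on their mean and taking the root mean square difference over the 6 arrays, in log2 units. Nearest to 228603_at were probe sets of TMEM68 (0.117), LOC441666 (0.131), FAM98B (0.139), CBX5 (0.155) and CCDC82 (0.156). Those of LOC441666 and CBX5 were kept through the U-2OS nonspecific siRNA array alone, at 6.69 and 6.80. TMEM68 had differences from nonspecific siRNA of -1.87 and -1.45. The CDK11 siRNA arrays were the lowest of each line for TMEM68, as for 228603_at, which follows from how it was chosen. Nearest to 213101_s_at, the brightest ACTR3 probe set, were TM2D3 (0.0147), DPH5 (0.0192), DCXR (0.0204), GCSH (0.0219) and EBLN3P (0.0241), whose differences from nonspecific siRNA were between -0.37 and -0.26 in KHOS cells and between -0.27 and -0.19 in U-2OS.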

How the data were processed

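The authors deposited log2 signals of 54675 probe sets, which they made with gcrma (background adjustment, quantile normalization, summary per probe set) before the filters of their methods. The gcrma version is not given in the sources used here. Genes were named from the platform annotation, updated through RefSeq, GRCh38.p14. Of the probe sets 41097 had 1 symbol (41043 matched by gene ID), 1801 several and 11777 none. Probe sets with a highest value above 6.64 were kept. Differences were scaled by their mean and SD over these, and a z-score beyond 3 was counted, after the authors' methods without their present and absent calls. KHOS and U-2OS were compared with limma 3.58.1 in R 4.3.3 on the 16397 kept probe sets, with the transfection as a blocking term, which left 2 residual degrees of freedom, two-sided, and p-values were adjusted after Benjamini and Hochberg. Python 3.11.15, pandas 2.3.3, numpy 2.4.6 and matplotlib 3.10.9 were used. A further list is not reported here. The genes and lists were chosen with earlier results of these data known. Named were all members, the CDK11 target, the ACTR3 paralogs, list genes beyond 3 SD or else the 2 with the largest mean difference per list, and the 5 nearest patterns. Alternatives covered filter, z scale, threshold, control, normalization, several probe sets per gene and the limma fit. The number of arrays limits the precision.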

Additional observations from a re-analysis of the deposited data

Results flagged for a closer look

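Of the other subunits, 7 probe sets had opposite signs in KHOS and U-2OS for CDK11 siRNA against nonspecific siRNA, with 1 array per condition, and whether the lines differ was not tested. The difference in KHOS minus that in U-2OS was -0.48 for ARPC1B, 0.45 for ARPC3, 0.31 for ARPC2 by 208679_s_at, 0.16 for ARPC1A, and 0.23, 0.28 and 0.054 for ARPC5L by 223101_s_at, 226914_at and 226915_s_at. In each of them the difference in both lines was within 3 SD.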

How the results depend on the processing

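The 4 ACTR3 probe sets kept their direction in both lines under each control and with each array centred on its median. Sizes were set beside the spread, over all kept probe sets, of the nonspecific siRNA array minus the untransfected array. This spread, a scaled median absolute deviation, was 0.257 in KHOS and 0.274 in U-2OS, and is not a replicate spread. Sizes moved by more than it with untransfected cells as the control, to -1.20 for 213102_at in KHOS and -1.15 for 228603_at in U-2OS. They also did with the brightest probe set in place of the median of 4, to -0.31 and -0.23. With the filter on the mean of the 6 arrays, which leaves 228603_at out, the member probe sets beyond 3 SD numbered 0 in KHOS and 1 in U-2OS against nonspecific siRNA and 0 in KHOS against untransfected cells. Against untransfected cells they numbered 2 in each line with no filter, with median and MAD, or with a threshold of 2. Those of the 5 actin lists numbered 6 and 8 with no filter, and 1 in U-2OS against untransfected cells, where 1.62% of all kept probe sets lay beyond 3 SD. With a changed filter, scale or threshold the share of all probe sets was not counted, so those counts cannot be set beside it. The median of the inhibitor list in KHOS, 0.32, was 0.01 with no filter and -0.08 against untransfected cells. For KHOS against U-2OS, limma called, with 228603_at counted, between 8 and 11 member probe sets except 14 with a prior variance set by the signal level. The share of all probe sets called was 75.6% with that prior, 22.5% with no filter and between 60% and 72.6% in the other settings. Without the arrays of 1 transfection limma called 8 to 10 members. Centring moved all line differences by -0.15. No called line difference changed sign. Uncalled ones did. With 1 transfection left out, ARPC1A ranged from -0.0911 to 0.0786, ARPC1B from -0.190 to 0.0474 and ARPC5 211963_s_at from -0.0808 to 0.0666, and with centring ARPC2 207988_s_at had -0.0516. The calls of ACTR3 200996_at, 213101_s_at and ARPC2 213513_x_at were lost without the nonspecific or the CDK11 siRNA arrays (ACTR3), without the block (200996_at) or with no filter, centring, or without the untransfected or the CDK11 siRNA arrays (ARPC2). Calls were gained by ARPC5 1555797_a_at (prior by level, centring) and by ACTR3 213102_at and ARPC2 208679_s_at (prior by level). Leaving out an array of CDK11 siRNA against a control leaves no comparison.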
